A study of Mus musculus with 14 samples.

Results

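The genes described are 10 transcripts of T cells and cytotoxic lymphocytes, Cd3e, Cd3d, Cd3g, Trbc2, Cd4, Cd8a, Nkg7, Gzmb, Cxcr6 and Ptprc, chosen by name from the 55536 Ensembl genes of the hippocampal count table. The hippocampi of 14 mice, each 10 months old, gave 1 RNA library each. The 4 MRL mice carried the B6.MRL-Faslpr/J background, in which the lpr allele of Fas gives a lupus-like disease, and the 4 MRL-IRAK4-KD mice carried this background together with a kinase-dead IRAK4. The 3 C57BL6/J mice carried neither, and the 3 IRAK4-KD mice carried the kinase-dead IRAK4 without lpr. IRAK4 is the kinase that relays signals of Toll-like and interleukin-1 receptors. The mutation was in all cells of the mouse, so the groups do not tell an effect in brain cells from an effect in circulating leukocytes. Brains were perfused with buffer before dissection.

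T cells recognize antigen through the T cell receptor, whose alpha and beta chains are joined on the membrane to the CD3 chains that carry the signal inwards. The coreceptors CD4 and CD8 bind the major histocompatibility molecules and divide T cells into helper and cytotoxic cells. Cytotoxic T cells and natural killer cells kill by releasing granzymes from granules, and CXCR6 marks T cells that stay resident in tissues. The healthy brain parenchyma holds few T cells, which are found mainly in the meninges, the choroid plexus and around vessels. CD45, the product of Ptprc, is a phosphatase on all leukocytes, microglia included. In bulk tissue, fewer cells of a type and less RNA per cell cannot be told apart.

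Total counts ranged from 279941472 to 572398312 per library, so that 1 count stood for between 0.00175 and 0.00357 CPM (counts scaled to a common library size). A pair of libraries stood apart. MRL-IRAK4-KD replicate 4 lay at 114 on the first principal component of log2 CPM, the other 13 libraries between -20.4 and 4.11. The library labelled IRAK4-KD replicate 3 went against its label at Fas. The full-length transcript of Fas had 0 counts there, as in the 8 libraries of both lpr groups, and at least 345 counts in each of the other C57BL6/J and IRAK4-KD libraries. This library also had 678 CPM summed over 10 striatal genes, against between 146 and 235 CPM in the other 13. Irak4 itself had means between 1.98 and 2.34 CPM in the 4 groups, and these counts do not tell whether its kinase domain is mutated.

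The data showed lymphocyte transcripts at very low levels in the hippocampus of every group, and edgeR called a difference for none of the 10 genes in 7 comparisons. In the edgeR quasi-likelihood test over 38070 genes, 0 of the 10 genes passed an adjusted p of 0.05 in MRL over MRL-IRAK4-KD mice, in a comparison that called 0.0972% of all genes. Every MRL mouse lay above every MRL-IRAK4-KD mouse in 1 of the 10 genes, Ptprc, and in 2.75% of all genes tested. Trbc2 reached up to 4.11 CPM in 4 libraries and Cd4 6.11 CPM in 1 library, and the CD3 genes of those libraries lay within or below the range of the others. All 10 genes passed the filter of at least 10 counts over the 14 libraries, with totals between 225 counts for Cd3d and 23893 counts for Ptprc.

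**Figure D1:**
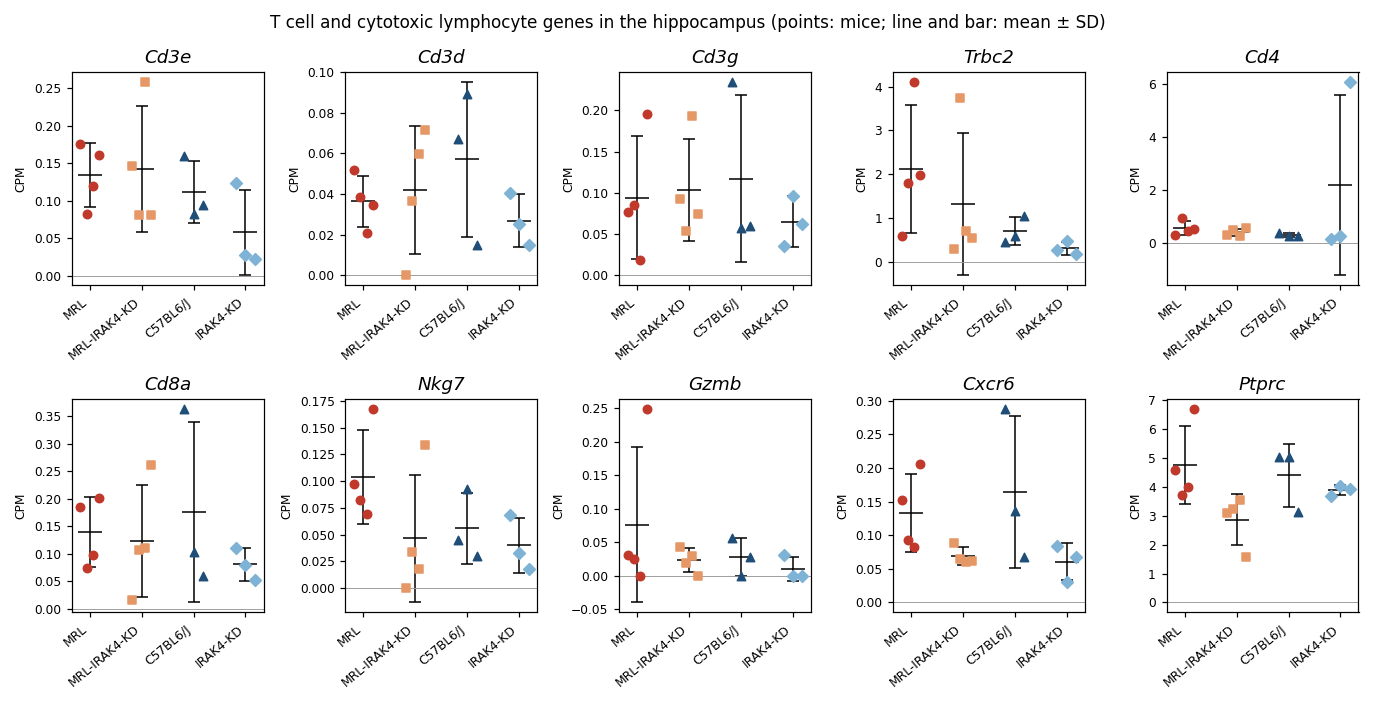
CPM of each of the 10 genes (y axis, a separate linear scale per gene) in the 4 groups (x axis), with a point per mouse and the mean ± SD in black. Between MRL and MRL-IRAK4-KD mice the groups overlapped for 9 of the 10 genes. The exception was Ptprc, higher in every MRL mouse, as were 2.75% of all genes tested. Single libraries stood out for Trbc2, Cd4 and Gzmb.

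Per kilobase of annotated exon, the mean level over the 14 libraries was highest for Trbc2, at 1.73 CPM per kb, followed by Ptprc at 0.215 and Cd4 at 0.198. The length takes in every annotated exon, those of transcripts with a retained intron included, from 692 bases for Trbc2 to 18313 for Ptprc. The order of the genes thus depends in part on the annotation. Nkg7 had 0.0695 CPM per kb, Cxcr6 0.0548 and Cd8a 0.0358. The CD3 genes and Gzmb were lowest, between 0.0223 and 0.0292 CPM per kb, and their order among each other was within the spread between mice. Without the library labelled IRAK4-KD replicate 3, Cd4 had 0.0966 CPM per kb, still the third highest level, and Ptprc 0.215.

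Cd3e (ENSMUSG00000032093.7, mm10 chromosome 9, 44998740 to 45009627, minus strand) encodes the epsilon chain of CD3, which every T cell needs to display its receptor. Its level was 0.176, 0.0822, 0.120 and 0.161 CPM in MRL replicates 1 to 4 and 0.147, 0.0815, 0.259 and 0.0808 CPM in MRL-IRAK4-KD replicates 1 to 4. The C57BL6/J mice had 0.159, 0.0822 and 0.0947 CPM and the IRAK4-KD mice 0.124, 0.0280 and 0.0221 CPM. The groups overlapped throughout, and the highest library of all belonged to MRL-IRAK4-KD. These levels rested on between 11 and 113 counts per library.

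Cd3d (ENSMUSG00000032094.8, chromosome 9, 44981786 to 44987339, plus strand) and Cd3g (ENSMUSG00000002033.14, chromosome 9, 44969572 to 44980431, minus strand) encode the delta and gamma chains and lie beside Cd3e. Cd3d had between 0.0210 and 0.0516 CPM in MRL, between 0 and 0.0715 in MRL-IRAK4-KD, between 0.0150 and 0.0894 in C57BL6/J and between 0.0147 and 0.0405 CPM in IRAK4-KD mice. It had 0 counts in MRL-IRAK4-KD replicate 1, where a count of 0 allows up to 3 counts or 0.00602 CPM by counting error alone. For Cd3g the ranges were 0.0189 to 0.196 CPM in MRL, 0.0534 to 0.193 in MRL-IRAK4-KD, 0.0572 to 0.235 in C57BL6/J and 0.0354 to 0.0967 CPM in IRAK4-KD mice. Neither gene separated any group from another.

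Summed over the 3 CD3 genes, MRL mice had 0.265 ± 0.104 CPM (SD, n = 4), MRL-IRAK4-KD mice 0.287 ± 0.152 CPM (n = 4), C57BL6/J mice 0.287 ± 0.154 CPM (n = 3) and IRAK4-KD mice 0.150 ± 0.0503 CPM (n = 3). The lowest sum, 0.0993 CPM, belonged to the library labelled IRAK4-KD replicate 3, and the highest, 0.512 CPM, to MRL-IRAK4-KD replicate 3. Among 23388 genes with a mean of at least 0.1 CPM, the genes with the pattern most like this sum over the 14 libraries were Gm47962 (Spearman's rho 0.96), Mxra8 (0.815), C4b (0.802), Fam167b (0.798) and Oas3 (0.798). These correlations describe libraries that share 4 groups and different depths.

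Rank correlations between the genes over the 14 libraries describe few counts each. With Cd3e, Spearman's rho was 0.209 for Cd3d, 0.376 for Cd3g and 0.169 for Trbc2, and between Cd3d and Cd8a it was 0.745.

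Trbc2 (ENSMUSG00000076498.2, chromosome 6, 41546730 to 41548352, plus strand) encodes a constant region of the receptor's beta chain. A near-identical constant region, Trbc1, lies upstream of it at 41538218 to 41539881 on chromosome 6, so that reads can be split between them in counting. Laid side by side without gaps, the 512 bases of the Trbc1 transcript in GENCODE M21 differ from those of Trbc2 at 24 positions, only 1 of which lies before base 361 of the transcript. The first 259 bases are the same in both, and 30.9% of the 593 windows of 100 bases in the Trbc2 transcript are also in Trbc1. Bases 361 to 510 are shown because they hold 21 of the differences, in capitals, which can tell reads of these transcripts apart. Only this Trbc1 transcript was compared, while the gene has 749 exonic bases.
Trbc1: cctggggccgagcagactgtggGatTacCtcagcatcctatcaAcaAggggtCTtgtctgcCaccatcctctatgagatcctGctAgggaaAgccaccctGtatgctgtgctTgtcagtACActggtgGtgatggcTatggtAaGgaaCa
Trbc2: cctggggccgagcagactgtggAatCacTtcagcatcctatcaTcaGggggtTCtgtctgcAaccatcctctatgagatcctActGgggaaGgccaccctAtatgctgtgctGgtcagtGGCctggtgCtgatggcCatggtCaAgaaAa

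Trbc2 stood at 0.583, 1.80, 4.11 and 1.99 CPM in MRL replicates 1 to 4 and at 0.297, 3.73, 0.693 and 0.538 CPM in MRL-IRAK4-KD replicates 1 to 4. It was 0.453, 0.579 and 1.05 CPM in the C57BL6/J mice and 0.263, 0.476 and 0.186 CPM in the IRAK4-KD mice. The 4 highest libraries were all from mice with the lpr background, 3 of them MRL and 1 MRL-IRAK4-KD, and the other 4 libraries of that background lay among or below the C57BL6/J values. Trbc1 shared this pattern only in part. It had 0.221 and 0.231 CPM in MRL replicates 3 and 4 and 0.188 CPM in MRL-IRAK4-KD replicate 2, but 0.0874 CPM in MRL replicate 2. Its highest value, 0.339 CPM, was in MRL-IRAK4-KD replicate 4. The means of Trbc1 were 0.160 CPM in MRL, 0.185 in MRL-IRAK4-KD, 0.0798 in C57BL6/J and 0.0445 CPM in IRAK4-KD mice.

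The same 4 libraries had the highest summed level of neocortical genes. A list of 10 such genes, added after the values had been seen, summed to 723, 615 and 619 CPM in MRL replicates 2 to 4 and to 526 CPM in MRL-IRAK4-KD replicate 2, against between 344 and 483 CPM in the other 10 libraries. Lamp5, a gene of upper cortical layers in this list, had 155, 84.9, 88.8 and 65.8 CPM in those 4 libraries and at most 44.1 CPM in the others. Not every gene of the list followed the sum. Fezf2 had 23.6, 29.9, 22.4 and 29.6 CPM in those 4 libraries and up to 34.9 CPM in the others. Bcl6 had 28.5, 37.6, 34.8 and 37.5 CPM there and up to 55.4 CPM elsewhere. The highest Tshz2, 78.1 CPM, was in IRAK4-KD replicate 2, with 31.7 CPM in MRL replicate 2. Their CD3 sums, between 0.160 and 0.392 CPM, lay within the range of the other libraries. The genes most like Trbc2 over the 14 libraries, looked up after its values had been seen, were Dact2 (Spearman's rho 0.921), Pak7 (0.903), Baalc (0.899), Ighg2c (0.899), an immunoglobulin constant region, and Tcf19 (0.895). The part of the neocortical genes in the level of Trbc2 was not tested.

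**Figure D2:**
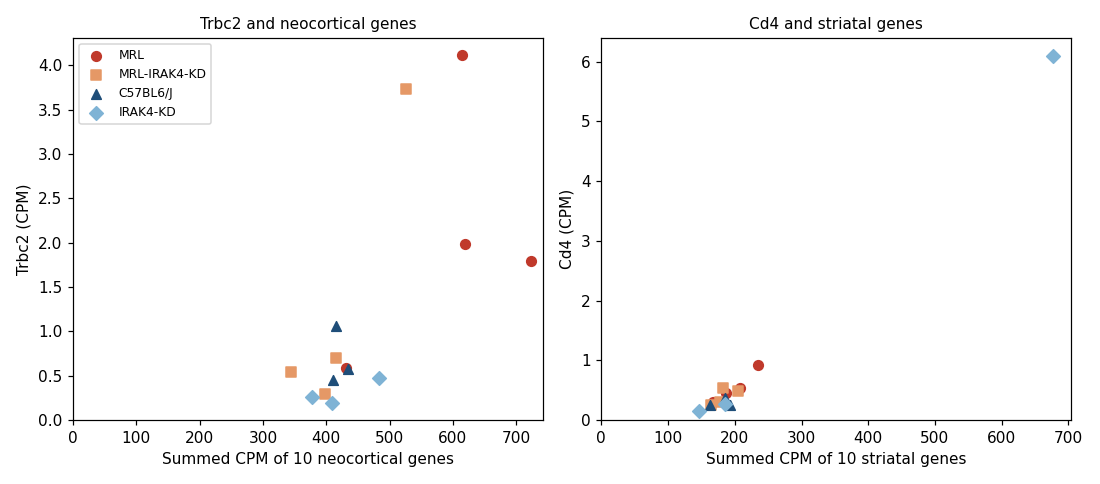
Left, Trbc2 (y axis, CPM) against the summed CPM of 10 neocortical genes (x axis), and right, Cd4 (y axis, CPM) against the summed CPM of 10 striatal genes (x axis), with a point per mouse and colours for the 4 groups. The 4 libraries with the highest Trbc2 are the 4 with the highest neocortical sum, and the library with 6.11 CPM of Cd4 is the library with 678 CPM of striatal genes.

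The segments that are joined to each other when T cells rearrange their receptor genes were counted as groups. Whether these counts came from rearranged genes was not tested. Of 70 joining segments 58 had a count in at least 1 library, 802 counts in all, of which 41.6% fell on the 6 Trbj2 segments that lie just before Trbc2. The Trbj2 segments had 0.0997, 0.155 and 0.110 CPM in MRL replicates 2 to 4 and 0.183 CPM in MRL-IRAK4-KD replicate 2, and at most 0.0474 CPM in the other 10 libraries, so that the 4 libraries with the highest Trbc2 were again the 4 highest.

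The variable segments followed a different order. Of 144 in the annotation 59 had a count in at least 1 library, and 84.0% of their counts fell on segments of the alpha chain. Summed, they stood at 0.552, 0.505, 0.576 and 0.470 CPM in MRL replicates 1 to 4 and at 0.416, 0.371, 0.402 and 0.0684 CPM in MRL-IRAK4-KD replicates 1 to 4. The C57BL6/J mice had 0.380, 0.400 and 0.384 CPM and the IRAK4-KD mice 0.329, 0.333 and 0.417 CPM. Every MRL mouse was thus above each of the other 10 mice, on sums of between 230 and 289 counts per MRL library. The sums were chosen after their values had been seen and were not tested, and assignment among segments is uncertain because many are near-identical to a paralog. How many genes separated the MRL mice from the other 10 in this way was not counted. Trac, the constant region of the alpha chain, did not share the pattern. Its means were 0.730 CPM in MRL, 0.853 in MRL-IRAK4-KD, 1.03 in C57BL6/J and 0.715 CPM in IRAK4-KD mice. The lowest sum, 22 counts over 8 segments, belonged to MRL-IRAK4-KD replicate 4, the library that stood apart.

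Cd4 (ENSMUSG00000023274.14, chromosome 6, 124864692 to 124888221, minus strand) encodes the helper coreceptor, which some macrophages also carry. The MRL mice had 0.293, 0.927, 0.445 and 0.533 CPM, with 0.293, 0.492, 0.252 and 0.541 CPM in MRL-IRAK4-KD and 0.364, 0.257 and 0.249 CPM in C57BL6/J mice. The IRAK4-KD mice had 0.157, 0.260 and 6.11 CPM, the last value coming from the library labelled IRAK4-KD replicate 3, where 3243 counts fell on the protein-coding transcript Cd4-201. That library lay 6.59-fold above the next highest, MRL replicate 2. It was also the library without full-length Fas and with striatal genes, Drd2, a dopamine receptor of striatal neurons, standing at 20.7 CPM against at most 5.16 CPM elsewhere. It held the lowest CD3 sum of all libraries. The part of the striatal genes in the level of Cd4 was not tested.

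Cd8a (ENSMUSG00000053977.13, chromosome 6, 71373427 to 71379173, plus strand) encodes the alpha chain of the cytotoxic coreceptor. The MRL mice had 0.186, 0.0734, 0.0987 and 0.202 CPM, with 0.0161, 0.107, 0.110 and 0.261 CPM in MRL-IRAK4-KD, 0.364, 0.104 and 0.0598 CPM in C57BL6/J and 0.111, 0.0789 and 0.0515 CPM in IRAK4-KD mice. The highest library was C57BL6/J replicate 1, and the 4 groups overlapped.

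Nkg7 (ENSMUSG00000004612.9, chromosome 7, 43437073 to 43438249, plus strand) encodes a protein of cytotoxic granules. It had 0.0971, 0.0822, 0.0693 and 0.168 CPM in MRL mice and 0, 0.0337, 0.0184 and 0.134 CPM in MRL-IRAK4-KD mice. All MRL-IRAK4-KD mice but replicate 4 lay below every MRL mouse, and replicate 4 lay above 3 of them. The C57BL6/J mice had 0.0448, 0.0929 and 0.0299 CPM and the IRAK4-KD mice 0.0683, 0.0331 and 0.0184 CPM. The fitted log2 difference of MRL over MRL-IRAK4-KD mice was 1.17 ± 0.94 (SE, edgeR adjusted p = 0.602). Leaving out MRL-IRAK4-KD replicate 4 gave 2.63 (edgeR adjusted p = 0.442).

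Gzmb (ENSMUSG00000015437.5, chromosome 14, 56258838 to 56262260, minus strand) encodes granzyme B, the protease that starts apoptosis in target cells. It had 0 counts in 5 of the 14 libraries. The MRL mice had 0.0310, 0.0245, 0 and 0.249 CPM, the MRL-IRAK4-KD mice 0.0422, 0.0197, 0.0298 and 0 CPM, the C57BL6/J mice 0.0559, 0 and 0.0274 CPM, and the IRAK4-KD mice 0.0304, 0 and 0 CPM. MRL replicate 4 alone, with 122 counts, stood above the rest. That mouse also had the highest Nkg7 and Ptprc of all 14, and the second highest Cxcr6 and Cd3g. Its summed level of genes of red cells, platelets and neutrophils, 364 CPM, was likewise the highest of all 14. MRL replicate 1 had 361 CPM of these blood genes, with Gzmb at 0.0310 CPM. The part of blood in the level of Gzmb was not tested.

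Cxcr6 (ENSMUSG00000048521.8, chromosome 9, 123806475 to 123811760, plus strand) encodes a chemokine receptor of tissue-resident T cells. It had 0.153, 0.0927, 0.0819 and 0.206 CPM in the MRL mice and 0.0883, 0.0647, 0.0597 and 0.0622 CPM in MRL-IRAK4-KD mice. Only MRL replicate 3 fell below the highest MRL-IRAK4-KD mouse. The C57BL6/J mice had 0.288, 0.136 and 0.0673 CPM and the IRAK4-KD mice 0.0835, 0.0305 and 0.0680 CPM. Its ligand, Cxcl16, had a mean of 1.94 ± 0.470 CPM (SD, n = 4) among MRL mice and of 1.85 ± 0.604 CPM (n = 4) among MRL-IRAK4-KD mice.

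Ptprc (ENSMUSG00000026395.16, chromosome 1, 138062861 to 138175708, minus strand) had 4.59, 3.72, 4.00 and 6.69 CPM in MRL replicates 1 to 4 and 3.08, 3.24, 3.54 and 1.57 CPM in MRL-IRAK4-KD replicates 1 to 4. All 4 MRL mice thus lay above all 4 MRL-IRAK4-KD mice, as in 2.75% of the genes tested. The C57BL6/J mice had 5.02, 5.01 and 3.12 CPM and the IRAK4-KD mice 3.69, 4.03 and 3.93 CPM, which overlapped with both. The log2 difference of MRL over MRL-IRAK4-KD mice was 0.74 ± 0.25 (SE, unadjusted p = 0.0109, adjusted p = 0.427, edgeR), and the exact permutation test gave p = 0.0286, the smallest that 4 mice against 4 allow. The other 9 genes had exact permutation p-values between 0.0571 for Cxcr6 and 1 for Cd3e. Without MRL-IRAK4-KD replicate 4, the lowest mouse, the log2 difference was 0.55 (edgeR adjusted p = 0.479).

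Most Ptprc counts, 77.9% of the total over transcripts, fell on Ptprc-201, which the annotation lists as a transcript with a retained intron, and 14.9% fell on the protein-coding Ptprc-203. The division between transcripts was uneven among mice, with 1324 and 1659 counts of Ptprc-203 in MRL replicates 1 and 2 and at most 197 counts in the other 12 libraries. Of Cd4, 97.7% of the counts fell on Cd4-201. Of Cd8a, 75.7% fell on the protein-coding Cd8a-201 and 20.2% on Cd8a-203, a transcript with a retained intron.

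Since microglia carry CD45, the level of Ptprc was set beside 12 microglial genes. These summed to between 441 and 547 CPM in the MRL mice and between 418 and 430 CPM in MRL-IRAK4-KD mice. Ptprc came to 0.991 ± 0.277% of that sum (SD, n = 4) in MRL and 0.677 ± 0.214% (n = 4) in MRL-IRAK4-KD mice, with ranges of 0.815 to 1.40% and 0.364 to 0.846% that overlapped. Another 10 genes, of red cells, platelets and neutrophils, summed to between 85.1 and 364 CPM in the MRL mice and between 53.9 and 189 CPM in MRL-IRAK4-KD mice, with 7 of the 10 higher in MRL at an unadjusted p under 0.05 in edgeR, which 11.4% of all genes had. Hbb-bs, a beta globin, had 133, 48.1, 29.5 and 129 CPM in the MRL mice and 20.6, 19.4, 18.8 and 47.2 CPM in MRL-IRAK4-KD mice. The part of microglia or blood in the difference of Ptprc was not tested.

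**Figure D3:**
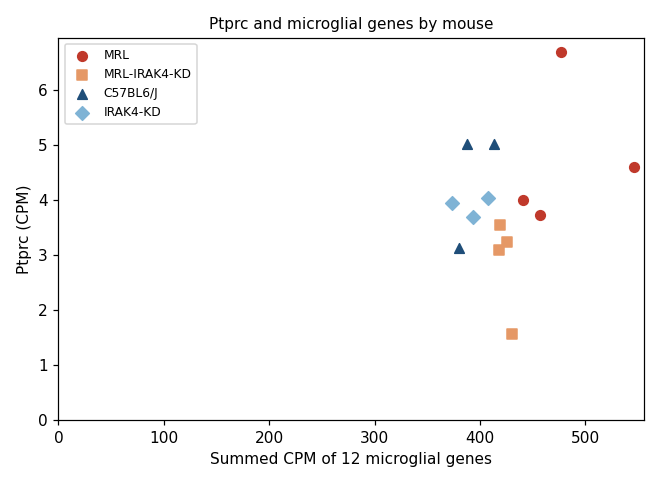
Ptprc (y axis, CPM) against the summed CPM of 12 microglial genes (x axis) with a point per mouse and colours for the 4 groups. The 4 MRL mice lie to the right, at 441 to 547 CPM of microglial genes, and MRL-IRAK4-KD replicate 4 lies lowest at 1.57 CPM of Ptprc.

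The comparisons between groups addressed whether IRAK4 kinase activity and the lpr background alter lymphocyte transcripts in the hippocampus. In MRL over MRL-IRAK4-KD mice, 7 of the 10 genes had a positive log2 difference and 3 a negative, with a median of 0.59 against 0.00 over all genes, and 1 of them, Ptprc, had an unadjusted p under 0.05 in edgeR, where 11.4% of all genes did. The 3 negative differences were those of the CD3 genes, Cd3e at -0.07 ± 0.56, Cd3d at -0.18 ± 0.91 and Cd3g at -0.12 ± 0.68 (SE). Leaving out 1 mouse turned the sign of each, Cd3e to 0.12 without MRL replicate 2 and all 3 to between 0.06 and 0.39 without MRL-IRAK4-KD replicate 3. Trbc2 differed by 0.70 ± 0.71, with 2.06 without MRL-IRAK4-KD replicate 2 (edgeR adjusted p = 0.245) and 0.17 without MRL replicate 3 (edgeR adjusted p = 0.959). The difference was 0.48 ± 0.83 for Cd4 and 0.19 ± 0.70 for Cd8a. The difference of Gzmb was 1.71 ± 1.56, with -0.29 without MRL replicate 4, and that of Cxcr6 was 0.96 ± 0.49 (edgeR adjusted p = 0.446). The standard errors of the CD3 genes, 0.56 to 0.91, left differences below 1 on the log2 scale undetectable at this depth and number of mice. Larger differences could also go uncalled, and the smallest detectable difference was not computed. DESeq2, which gave no adjusted p for Cd4 in any comparison, and limma-voom also called 0 of the 10 here. Over all genes DESeq2 called 395 of 30299 and limma-voom 232 of 38070.

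**Figure D4:**
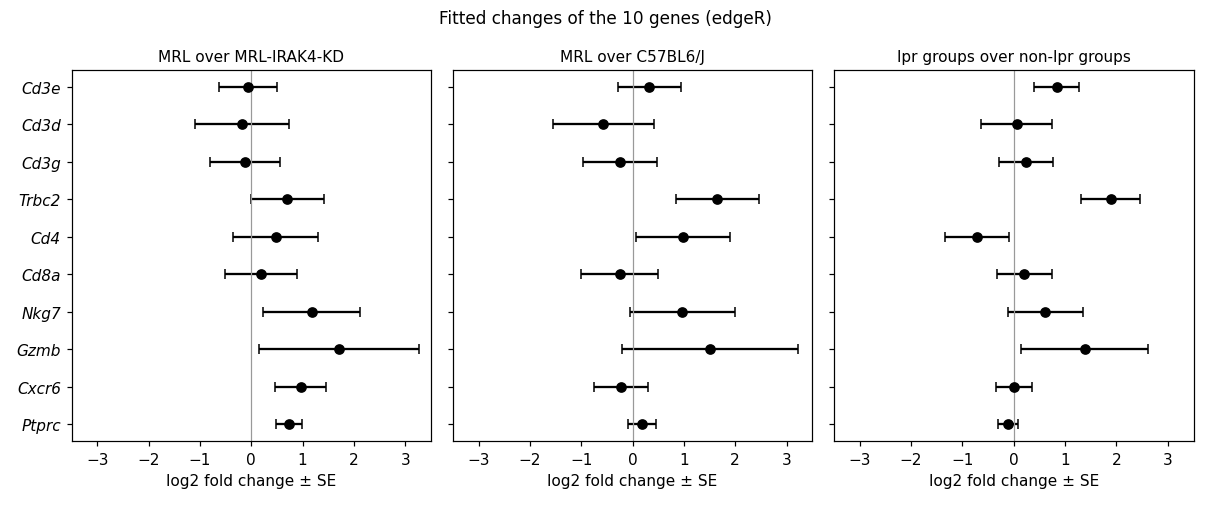
Log2 fold change with its standard error (x axis) of the 10 genes (y axis) in MRL over MRL-IRAK4-KD, MRL over C57BL6/J and the lpr over the non-lpr groups. Most intervals reach across 0, and Ptprc, with the shortest, lies at 0.74 in MRL over MRL-IRAK4-KD.

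In MRL over C57BL6/J mice, 0 of the 10 genes passed the adjusted threshold in edgeR, in DESeq2 and in limma-voom. Over all genes, edgeR called 0%, DESeq2 197 of 28831 and limma-voom 67 of 38070. In edgeR 0 of the 10 had an unadjusted p under 0.05, against 5.55% of all genes. The log2 differences ranged from -0.57 ± 0.98 (SE) for Cd3d to 1.65 ± 0.80 for Trbc2, the latter with an adjusted p of 0.908 by edgeR. Ptprc differed by 0.18 ± 0.27. In MRL-IRAK4-KD over C57BL6/J mice, a comparison that called 0.0972% of all genes, 0 of the 10 passed. Cxcr6, at -1.18 ± 0.52, was the 1 gene with an unadjusted p under 0.05 in edgeR, which 8.62% of all genes had.

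The IRAK4-KD over C57BL6/J comparison called 0.147% of all genes and 0 of the 10. Of the 10 log2 differences 9 were negative, with a median of -1.01, and 2 of the 10 genes had an unadjusted p under 0.05 in edgeR, where 3.8% of all genes did. These were Cxcr6 at -1.41 ± 0.57 (SE) and Cd4 at 2.91 ± 1.02 (edgeR adjusted p = 1 for both). Without the library labelled IRAK4-KD replicate 3 the difference of Cd4 was -0.47, while that of Cxcr6 was -1.5. In MRL-IRAK4-KD over IRAK4-KD mice, where edgeR called 0.0735% of all genes and 0 of the 10, Cd4 at -2.41 ± 0.90 and Trbc2 at 2.13 ± 0.83 had an unadjusted p under 0.05, which 8.63% of all genes had. Without the same library Cd4 differed by 0.97 and Trbc2 by 1.86.

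Both lpr groups were then set against both others, with each library kept in its labelled group. Again 0 of the 10 genes passed in edgeR, which called 0.0657% of all genes, and 1, Trbc2, had an unadjusted p under 0.05, against 10.2% of all genes. Trbc2 was 1.89 ± 0.58 higher on the log2 scale (SE, edgeR unadjusted p = 0.00555, adjusted p = 0.295), a difference that DESeq2 called with an adjusted p of 0.0147 and limma-voom did not, with 0.249. Without MRL-IRAK4-KD replicate 2 it was 1.21 (edgeR adjusted p = 0.351). It was 1.76 (edgeR adjusted p = 0.567) without the library labelled IRAK4-KD replicate 3, which had the lowest Trbc2 of all. In DESeq2 the same comparison called 761 genes, against 25 in edgeR. Cd3e differed by 0.84 ± 0.44, while Cd4 at -0.72 ± 0.63 turned to 0.97 (edgeR adjusted p = 0.524) without the library labelled IRAK4-KD replicate 3.

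The interaction, the effect of the mutation on the lpr background minus its effect without lpr, was called for 0.00263% of all genes in edgeR and for 0 of the 10. Limma-voom also called 0 of the 10, as did DESeq2, which gave no p for Cd4. Over all genes limma-voom called 24 of 38070 and DESeq2 59 of 33225. Cd4, at -3.39 ± 1.29 (SE), had an unadjusted p under 0.05 in edgeR, which 4.17% of all genes had. Without the library labelled IRAK4-KD replicate 3 its interaction was -0.01.

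Other genes of T cells and natural killer cells were read from 3 lists. In MRL over MRL-IRAK4-KD mice, edgeR called 0 of 23 genes of the T cell receptor and its signalling, 0 of 17 cytotoxic and natural killer cell genes and 0 of 14 genes of T cell entry and residence, against 0.0972% of all genes. At an unadjusted p under 0.05, which 11.4% of all genes had in edgeR, 3 receptor and signalling genes were higher and 3 lower with a median of -0.03, 0 cytotoxic genes moved either way with a median of -0.12, and 7 entry and residence genes were higher and 0 lower with a median of 0.53, against 0.00 over all genes. In MRL over C57BL6/J mice the 3 medians were 0.04, 0.20 and 0.30, and in the lpr over the non-lpr groups 0.12, 0.42 and 0.26, with 0 genes called by edgeR in either. The lists were not fitted without MRL-IRAK4-KD replicate 4, a library that stood apart.

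Several of the listed genes are also made by brain cells. Bcl11b, a transcription factor of T cells and of neurons, had the highest level of the receptor list with a mean of 164 CPM, and its log2 difference of MRL over MRL-IRAK4-KD mice was -0.43 ± 0.15 (SE). Lag3, an inhibitory receptor also known from neurons and microglia, had a mean of 5.60 CPM and a difference of 0.55 ± 0.22. In MRL-IRAK4-KD replicate 4, Bcl11b had 211 CPM and Lag3 8.20 CPM, against at most 178 and 4.46 CPM in the other MRL-IRAK4-KD mice. The receptor chain gene Trac had means between 0.715 and 1.03 CPM in the 4 groups, highest in C57BL6/J mice. The largest fitted differences of the list were those of Themis, a thymocyte signalling protein, at 1.83 ± 1.04 and of Cd6, a costimulatory receptor, at 1.23 ± 0.59.

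Cd6 was highest in the same 4 libraries as Trbc2. It had 2.82, 1.47 and 1.05 CPM in MRL replicates 2 to 4 and 1.12 CPM in MRL-IRAK4-KD replicate 2, and at most 0.626 CPM in the other 10 libraries. Among the cytotoxic genes, Gzmm and Ctsw had the highest levels, with means of 1.35 and 0.375 CPM and log2 differences of -0.12 ± 0.22 and 0.00 ± 0.35 (SE). Klra1 and Klrk1, receptors of natural killer cells, had the largest fitted differences at -4.09 ± 2.15 and 2.53 ± 1.28, on means of 0.00251 and 0.0445 CPM.

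In the list of entry and residence, S1pr1, a lipid receptor of lymphocytes that astrocytes and endothelium also carry, had a mean of 134 CPM. Its log2 difference was 0.44 ± 0.18 (SE) in MRL over MRL-IRAK4-KD mice. Itga4, an integrin chain, had 35.2 CPM and 0.16 ± 0.13. In MRL-IRAK4-KD replicate 4, S1pr1 had 60.6 CPM and Itga4 22.3 CPM, against at least 124 and 32.7 CPM in the other MRL-IRAK4-KD mice. The chemokines Cxcl9 and Cxcl10, which interferon induces and which attract activated T cells, had the largest differences at 1.94 ± 0.89 and 1.78 ± 0.45 (edgeR adjusted p = 0.439 and 0.321). Cxcl10 had 1.11, 0.593, 0.943 and 1.91 CPM in the MRL mice and 0.273, 0.284, 0.580 and 0.196 CPM in MRL-IRAK4-KD mice. Every MRL mouse thus lay above every MRL-IRAK4-KD mouse, as in 2.75% of all genes tested. The C57BL6/J mice, at 1.07, 0.458 and 0.344 CPM, overlapped with both.

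Markers of other cells that the dissection could hold gave the following in MRL over MRL-IRAK4-KD mice. Edge tissues differed widely between mice, the summed level of 8 choroid plexus genes ranging from 72.3 to 1644 CPM in the MRL mice and from 158 to 7600 CPM in MRL-IRAK4-KD mice, with the highest value in MRL-IRAK4-KD replicate 4. The 8 genes of meninges and fibroblasts summed to 123 to 204 CPM and 145 to 207 CPM, 10 genes of B and plasma cells to 72.8 to 81.9 CPM and 65.2 to 76.0 CPM, and 12 genes of border macrophages and dendritic cells to 21 to 32.1 CPM and 20.3 to 23.3 CPM. The 10 genes listed for hippocampal neurons summed to between 4164 and 5569 CPM over the 14 libraries, a sum led by Snap25 and Slc17a7, which neurons outside the hippocampus also express. Of the more restricted genes of this list, Prox1, of dentate granule cells, ranged from 56.4 to 127 CPM, C1ql2, also of these cells, from 36.4 to 106 CPM, and Fibcd1, of CA1 neurons, from 54.9 to 133 CPM. The library labelled IRAK4-KD replicate 3 had 127, 44.7 and 95.9 CPM of these. None of these lists had a gene at 0 in all libraries or a call in edgeR, and their part in the lymphocyte genes was not tested.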

How the data were processed

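Gene and transcript counts, whole numbers that were not normalized, were deposited by the authors, who had used HISAT2 for alignment to mm10 and StringTie for counting. The methods of the paper name a SMART-seq preparation and the labels a KAPA HyperPrep mRNA kit. Identifiers matched GENCODE M21. StringTie derives counts from coverage, here 1.40 to 2.08 for each read listed by the core, so counts are not independent molecules and limits at a count of 0 cover counting error only. Features other than Ensembl genes held at most 0.188% of the counts.

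The main test was edgeR 4.0.16 (R 4.3.3; TMM, robust quasi-likelihood, 1 model of the 4 groups) on the 38070 genes whose counts summed to 10 or more, with Benjamini-Hochberg adjustment over all of them. For each member, log2(CPM + 0.1) was also compared by an exact permutation test, 2-sided. The members, lists and tests were chosen with earlier results of these data known. From each of the 3 lymphocyte lists, the 2 genes with the highest mean and the 2 with the largest fitted change in MRL over MRL-IRAK4-KD were named, and other list genes, Trac and Cxcl16 among them, and the neocortical and striatal lists were chosen after values had been seen. Other lists are given by counts and sums. As alternatives, DESeq2 1.42.0, RLE size factors, library size only, limma-voom (limma 3.58.1) with quality weights, no filter, filterByExpr, the replicate number as a block, only the 8 mice compared, each mouse left out, and a pseudocount of 1 were tried. Only the edgeR test of MRL over MRL-IRAK4-KD was checked on simulated data, with changes set in genes above 1 CPM. All members but Trbc2 and Ptprc had a mean below that level, which the check does not cover. The labels do not say whether the mice shared litters. Figures were drawn with matplotlib.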

Additional observations from a re-analysis of the deposited data

Results flagged for a closer look

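Dixon's test was applied to the groups of 4 for each of the 10 genes, 20 groups in all, of which chance flags about 1 in 20. Trbc2 in MRL-IRAK4-KD replicate 2, at 3.73 CPM, stood apart from the other 3 MRL-IRAK4-KD mice, which had between 0.297 and 0.693 CPM. Gzmb in MRL replicate 4, at 0.249 CPM, stood apart from the other 3 MRL mice, which had between 0 and 0.0310 CPM. No gene of the 10 passed the adjusted threshold for an interaction in edgeR.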

How the results depend on the processing

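Of the 155 counts of the 10 genes called under an alternative, 154 stayed at 0. The exception was DESeq2 in the lpr over the non-lpr groups, which called 1, Trbc2. Over all genes the alternatives called from 18 to 395 in MRL over MRL-IRAK4-KD mice (37 in the main test), from 0 to 197 in MRL over C57BL6/J (0), from 23 to 174 in MRL-IRAK4-KD over C57BL6/J (37), from 33 to 166 in IRAK4-KD over C57BL6/J (56), from 11 to 283 in MRL-IRAK4-KD over IRAK4-KD (28), from 2 to 761 in lpr over non-lpr (25) and from 1 to 59 for the interaction (1). In MRL over MRL-IRAK4-KD, MRL over C57BL6/J and lpr over non-lpr, the log2 differences kept their sign in 619 of 670 fits, and in the other 4 comparisons in 833 of 880. All genes but Ptprc, Trbc2 and Cd4 had a median of at most 48 counts per library.

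Leaving out 1 mouse, or both libraries that stood apart, moved MRL over MRL-IRAK4-KD differences from -0.26 to 0.39 for Cd3e, -0.60 to 0.23 for Cd3d, -0.75 to 0.36 for Cd3g, -0.18 to 0.89 for Cd8a and -0.29 to 2.19 for Gzmb. In MRL over C57BL6/J it moved them from -0.87 to 0.74 for Cd3g, -0.65 to 0.85 for Cd8a, -0.58 to 0.46 for Cxcr6, -0.49 to 2.45 for Gzmb and -0.018 to 0.30 for Ptprc, and in lpr over non-lpr from -0.29 to 0.30 for Cd3d, -0.075 to 0.73 for Cd3g, -0.99 to 0.97 for Cd4, -0.26 to 0.75 for Cd8a, -0.18 to 0.34 for Cxcr6 and -0.29 to 0.93 for Nkg7. With 1 mouse left out at a time, the lowest lpr over non-lpr values were -0.17 for Cd3d, -0.14 for Cd8a and -0.10 for Nkg7, and the lower ones above came without both libraries, as did -0.26 for Cd3e. The mouse without which Gzmb turned was MRL replicate 4, and for Cd4 it was the library labelled IRAK4-KD replicate 3.

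With limma-voom, Cd3d turned to 0.90 and Gzmb to -1.43 in MRL over MRL-IRAK4-KD mice, Cd8a to 0.10 in MRL over C57BL6/J, and Cd3d to -0.56, Cd4 to 0.15, Cd8a to -0.074 and Nkg7 to -0.43 in lpr over non-lpr. With library size only, Cd3d was -0.0015 and Cxcr6 -0.058 in the last comparison. The causes were not tested. Of 19 pairs of libraries with the same replicate number, 4 had a correlation over 0.1 (range -0.251 to 0.374). Pairs of different numbers were not compared, so these correlations cannot tell whether the numbers pair the mice. With the replicate block 0 of the 10 genes were called in each comparison, and from 0 to 48 of all genes. Under this block Cd8a was -0.043, Cxcr6 -0.062 and Nkg7 -0.17 in lpr over non-lpr.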
